A study of Hordeum vulgare with 18 samples.

Results

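A set of 100 barley genes whose RNA rose between 7 and 14 days post anthesis in flag leaves of the line Karl, and whose larger rise in flag leaves of the line 10_11 came between 14 and 21 days, was described across 18 libraries. The genes were chosen by their measured levels. On the scale log2(group mean + 5) of the normalized counts that the authors deposited, each gene was given a score, the smaller of its rise in Karl from 7 to 14 d and its rise in 10_11 from 14 to 21 d, minus the larger of its absolute changes in the other interval of each line. The score was computed for the 7152 of 13626 genes with a group mean of 20 or more, and the 100 highest were taken. That choice made no use of 1 library, labelled 10_11 14 d replicate C.

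The plants were grown in a glasshouse in a small randomized block design, with fertilizer and potassium nitrate given to both lines until anthesis, and shoots were tagged with their day of anthesis. Each of the 6 groups, Karl or 10_11 at 7, 14 or 21 d, had 3 samples, each a pool of 10 or more flag leaves. RNA was counted by MARS-seq, in which short tags near the 3′ end of each transcript are read and counted. The labels do not say whether samples of a group shared pots, so the p-values below measure the spread between these pooled samples.

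The flag leaf, the last leaf below the ear, feeds the growing grain first by photosynthesis and later by giving up its own nitrogen. In leaf senescence chloroplasts are dismantled in an ordered way, proteins are broken down to amino acids, and these are exported to the grain, while large sets of genes are switched on. Karl is a barley cultivar with low grain protein, and 10_11 is a near-isogenic line of it that carries a high grain protein allele on chromosome 6 and has been described as senescing earlier than Karl. The deposited identifiers come without gene names, and a search of the reference gene table found 0 of them, so no role is given to any gene here and each is called by its identifier.

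Depth was lower at 7 d, with 353982 to 947762 counts a library, than at 14 and 21 d, with 1058777 to 3231258. The 7 d samples are also numbered in another style in the labels, so that a change from 7 to 14 d crosses both differences. The library labelled 10_11 14 d replicate C went against the line on its label. At 19 genes that differed between the lines by 2 or more log2 units, in the same direction, at both 7 and 21 d, it had a median position of 0.026 on a scale from 0, the mean of Karl, to 1, the mean of 10_11. The other 10_11 libraries had median positions of 0.801 to 1.012 and the Karl libraries of −0.045 to 0.053. None of the 19 genes was among the 100, and this library was left out of the results below unless it is named.

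The 100 genes were low in both lines at 7 d, high in Karl and low in 10_11 at 14 d, and high in both at 21 d. The median of the genes' mean normalized counts in Karl was 5.44, 63.3 and 65.0 at 7, 14 and 21 d, respectively. In 10_11 it was 7.47, 11.0 and 75.1 at the same 3 ages. The genes together took 0.123% ± 0.00844 (SD, n = 3) of the counts of Karl at 7 d, 1.14% ± 0.458 (SD, n = 3) at 14 d and 1.24% ± 0.482 (SD, n = 3) at 21 d. In 10_11 their share was 0.140% ± 0.0206 (SD, n = 3) at 7 d, 0.210% ± 0.0314 (SD, n = 2) at 14 d and 1.40% ± 0.867 (SD, n = 3) at 21 d. Because whole leaves were sampled, fewer cells of a type and less RNA per cell cannot be told apart.

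**Figure D1:**
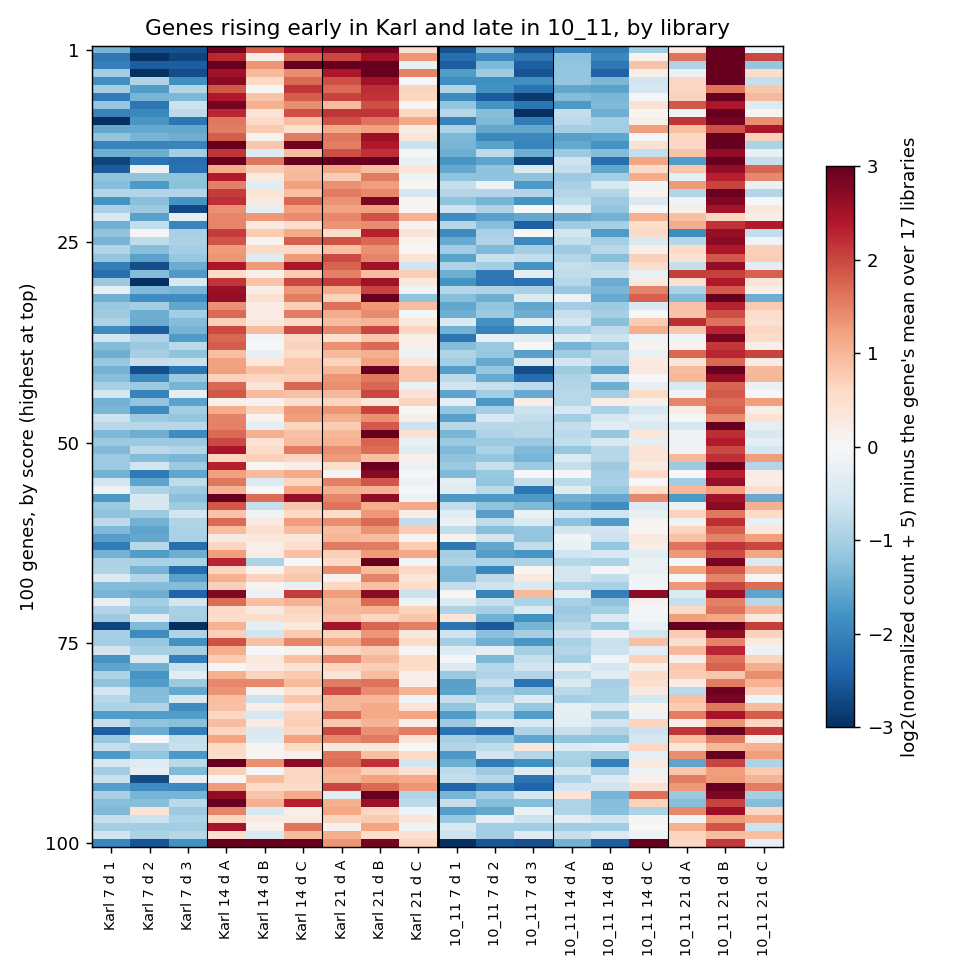
The heat map shows the 100 genes, ordered by score from the top, in each of the 18 libraries; colour gives log2(normalized count + 5) minus the gene's mean over the 17 libraries used, with colours held at ±3. Karl turns from blue to red between 7 and 14 d and 10_11 between 14 and 21 d, with Karl 14 d B, Karl 21 d C and 10_11 21 d A and C paler than the other libraries of their groups, and the library labelled 10_11 14 d C paler than Karl but redder than 10_11 14 d A and B.

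The rise in Karl from 7 to 14 d had a median of 2.20 over the 100 genes, with a range of 1.07 to 6.10 on the log2(group mean + 5) scale. The rise in 10_11 from 14 to 21 d had a median of 2.23 and a range of 1.22 to 4.49. The changes that the score asked to be small had medians of 0.18 in Karl from 14 to 21 d and 0.20 in 10_11 from 7 to 14 d. Over all 7152 genes scored, the medians of these 4 changes were −0.02 and 0.08 for the rises and 0.02 and −0.01 for the others. The values chose the genes, so they are given as a description. The added 5 understates the change of genes with few counts.

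HORVU3Hr1G074360, on chromosome 3, had the highest score, 4.39. Its normalized counts in Karl were 6.72, 0 and 0 in replicates 1, 2 and 3 at 7 d, 223.8, 101.1 and 162.4 in replicates A, B and C at 14 d, and 201, 217 and 38.0 at 21 d. In 10_11 they were 0, 7.72 and 0 at 7 d, 2.56 and 1.98 in replicates A and B at 14 d, and 32.2, 418 and 24.1 at 21 d. No Karl library of 14 d overlapped one of 7 d, and no 10_11 library of 21 d overlapped one of 14 d, but at 21 d replicate B of 10_11 stood far above replicates A and C. Its rise was 4.53 in Karl from 7 to 14 d and 4.49 in 10_11 from 14 to 21 d, and the second fell to 2.19 without 10_11 21 d B.

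HORVU0Hr1G012930, which is not placed on a chromosome, had 280, 63.0 and 191 normalized counts in Karl at 14 d after 8.40, 2.25 and 3.77 at 7 d. In 10_11 it had 20.5 and 10.6 at 14 d, and 179, 851 and 234 at 21 d. All 3 libraries of 10_11 at 21 d were above all those of 14 d by a wide gap, and the rise there was 4.38, or 3.36 without replicate B. HORVU3Hr1G087480, on chromosome 3, had 315, 102 and 142 normalized counts in Karl at 14 d after 21.8, 0 and 3.77 at 7 d. In 10_11 it had 19.8 and 5.28 at 14 d, and 43.3, 647 and 76.8 at 21 d. These 3 genes had the largest values of the smaller of the 2 rises.

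HORVU5Hr1G059280, on chromosome 5, rose by 5.65 in Karl, from 1.68, 0 and 0 normalized counts at 7 d to 436, 64.6 and 324 at 14 d. In 10_11 it had 7.32 and 1.32 at 14 d, and 9.99, 281 and 7.53 at 21 d. Its late rise of 3.49 in 10_11 was carried by replicate B, since A and C were barely above the higher library of 14 d, and the rise was 0.56 without B. In Karl at 21 d the same gene had 233, 328 and 18.7, so that replicate C was the low one.

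The late rise held in every library for other genes with a high score. HORVU6Hr1G026370, on chromosome 6, had 2.93 and 2.64 normalized counts in 10_11 at 14 d and 31.1, 66.1 and 35.4 at 21 d, against 78.8, 18.8 and 97.9 in Karl at 14 d. HORVU1Hr1G063740, on chromosome 1, had 17.9 and 14.5 in 10_11 at 14 d and 171, 286 and 98.6 at 21 d, against 114, 54.2 and 69.3 in Karl at 14 d. HORVU3Hr1G088270, on chromosome 3, had 2.20 and 1.98 in 10_11 at 14 d and 22.2, 50.6 and 73.0 at 21 d, against 36.8, 19.9 and 15.1 in Karl at 14 d. In these 3 genes all libraries of 10_11 at 21 d were above those of 14 d, and the rise without replicate B was 2.30, 2.72 and 2.89 respectively.

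The 5 other genes among the 12 with the highest scores were HORVU6Hr1G038250, HORVU4Hr1G013460, HORVU3Hr1G030650, HORVU3Hr1G053210 and HORVU7Hr1G113290. Their rises in Karl from 7 to 14 d were 3.36, 3.40, 3.19, 3.17 and 2.68. Their rises in 10_11 from 14 to 21 d were 3.20, 3.39, 3.20, 2.78 and 3.55, and without 10_11 21 d B they were 1.36, 2.17, 2.64, 1.04 and 2.29. In each of the 5 all Karl libraries of 14 d were above those of 7 d, and all 10_11 libraries of 21 d were above the 2 used at 14 d. The gap in 10_11 was small in HORVU6Hr1G038250, with 2.93 normalized counts in 14 d A and 6.02 in 21 d C, both from 8 raw counts.

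**Figure D2:**
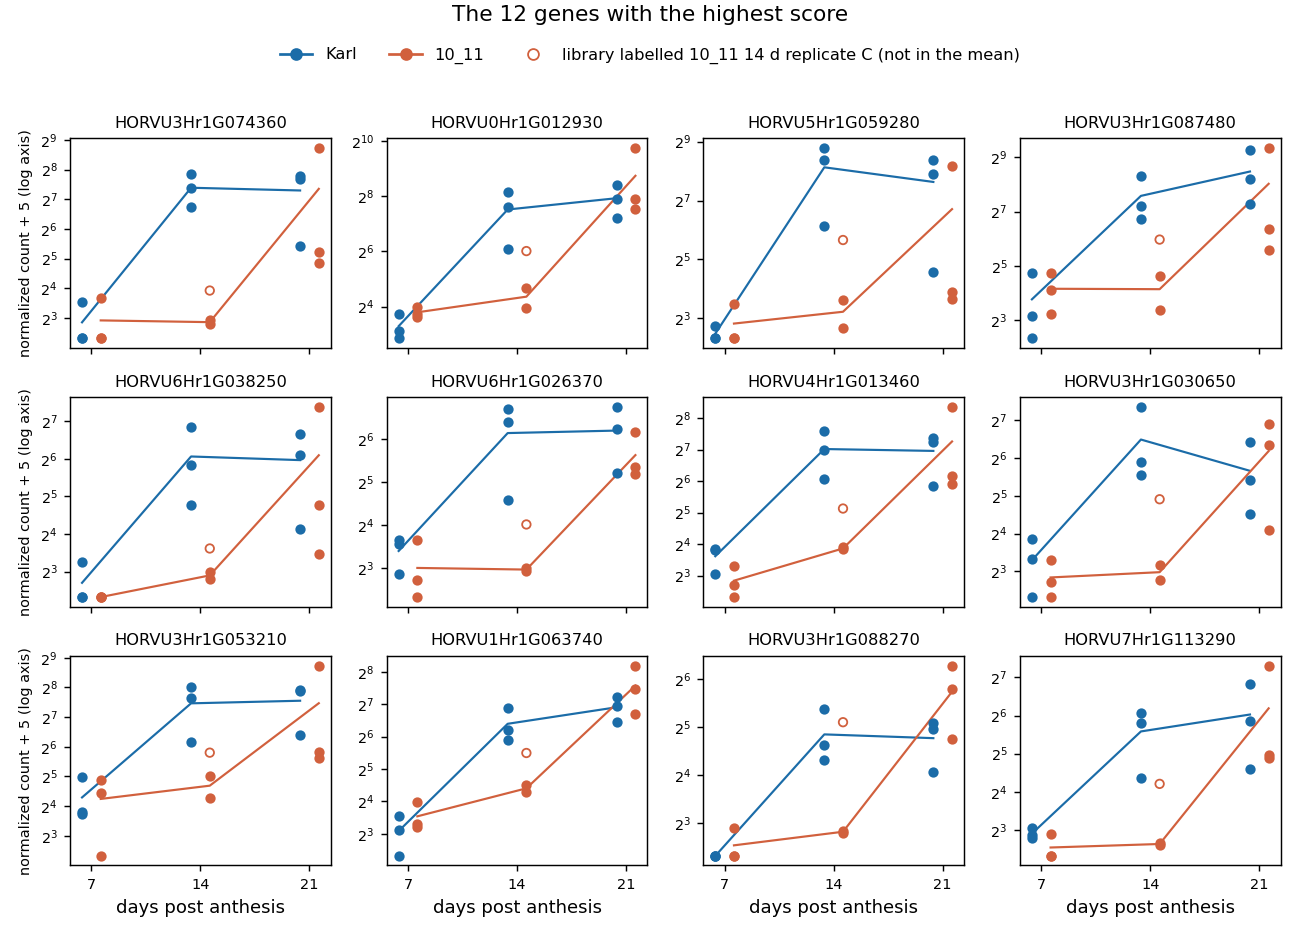
The 12 genes with the highest score are drawn as normalized count + 5 on a log axis against days post anthesis, with 1 point for each library, lines through the group means, and an open circle for the library labelled 10_11 14 d C, which is not in the mean. The Karl points climb by 14 d and the 10_11 points by 21 d, and in HORVU5Hr1G059280 the 10_11 mean at 21 d rests on 1 point, replicate B at 281. Replicate B was also at least 4-fold above the next 10_11 library of 21 d in HORVU3Hr1G074360, HORVU3Hr1G087480, HORVU6Hr1G038250, HORVU4Hr1G013460, HORVU3Hr1G053210 and HORVU7Hr1G113290.

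The genes with the highest levels in Karl at 14 d were HORVU6Hr1G056570, HORVU6Hr1G084070 and HORVU4Hr1G060940. HORVU6Hr1G056570 had 331, 250 and 303 normalized counts in Karl at 7 d, 1497, 917 and 932 at 14 d, and 1154, 1592 and 627 at 21 d. In 10_11 it had 298, 241 and 299 at 7 d, 290 and 346 at 14 d, and 927, 3299 and 1014 at 21 d. The lines overlapped at 7 d, and in 10_11 the libraries of 14 d overlapped those of 7 d. HORVU4Hr1G060940 had 562, 413 and 642 in Karl and 182 and 129 in 10_11 at 14 d, and 653, 1087 and 257 in Karl and 292, 915 and 300 in 10_11 at 21 d. Its lines overlapped at 21 d but not at 14 d. Levels of 3′ tags do not depend on transcript length in the way of full-length reads, but the efficiency of tagging may differ between genes, so no order between genes is drawn from them.

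HORVU6Hr1G084070, on chromosome 6, was the last gene taken, with a score of 0.927, and it did not keep its level in Karl. It had 10.1, 4.51 and 11.3 normalized counts in Karl at 7 d, 1561, 544 and 680 at 14 d, and 139, 416 and 84.4 at 21 d. In 10_11 it had 0, 4.63 and 4.20 at 7 d, 16.5 and 5.28 at 14 d, and 83.2, 246 and 43.6 at 21 d. Its rise in Karl, 6.10, was the largest of the 100, and its change in Karl from 14 to 21 d, −2.10, was the lowest. The library labelled 10_11 14 d C had 499, above both other 10_11 libraries of that day and below all 3 of Karl, and with it included the fitted change of this gene in 10_11 from 14 to 21 d turned to −0.54 on the log2 scale.

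The genes next to the end of the list differed little from those just outside it. HORVU4Hr1G017260 and HORVU2Hr1G089130, ranked 98 and 99, had scores of 0.952 and 0.944. HORVU4Hr1G013540, HORVU2Hr1G075110 and HORVU3Hr1G069590, the next 3 and not taken, had scores of 0.923, 0.920 and 0.908. The last of these rose by 4.44 in Karl and by 2.16 in 10_11, values well inside the ranges of the 100, and was kept out by its rise of 1.25 in 10_11 from 7 to 14 d.

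The same score with the lines exchanged, for a rise early in 10_11 and late in Karl, reached 1.04, and 1 gene had a score at or above that of the last of the 100. That gene, HORVU2Hr1G113260, chosen here after its values were seen, had 89.3, 78.7 and 46.3 normalized counts in 10_11 at 7 d, 322 and 772 at 14 d and 1420, 1220 and 733 at 21 d. In Karl it had 133, 15.8 and 194 at 7 d, 107, 286 and 306 at 14 d, and 914, 950 and 1121 at 21 d. Falls early in Karl and late in 10_11 reached a score of 2.02, and 18 genes had a score at or above that of the last of the 100. For falls early in 10_11 and late in Karl these values were 1.75 and 6 genes. These are counts of what the score finds in the same libraries, with no test.

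Separation between libraries was counted for each gene. In 95 of the 100 all Karl libraries of 14 d were above all those of 7 d, against 18.3% of all genes scored. In 85 of the 100 all 10_11 libraries of 21 d were above those of 14 d, against 27.3% of all genes scored. Both held in 80 of the 100 genes, against 9.28% of all genes scored. In 95 of the 100 all Karl libraries were above those of 10_11 at 14 d, against 21.7% of all. All of these counts use the libraries that chose the genes, so nothing is read from the gap to the background. With the library labelled 10_11 14 d C counted as 10_11, the 85 became 52, against 21.6% of all genes scored, and the 80 became 48, against 6.70%.

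In edgeR's quasi-likelihood test, fitted to 17 libraries and with Benjamini-Hochberg adjustment over the 10382 genes tested, which held all 100, 79 of the 100 were called as early rises in Karl, from 7 to 14 d, at an adjusted p under 0.05. Of all genes tested, 5.76% were called as rises there. From 14 to 21 d in Karl 0 of the 100 were called, against 1.09% of all genes. At an unadjusted p under 0.05 there were 7, against 1334 of all 10382 genes. DESeq2 gave an adjusted p to 91 of the 100 and called 2, against 3.30% of all genes. From 7 to 14 d in 10_11 0 were called, against 0.645% of all genes. At an unadjusted p under 0.05 there were 4, against 1234 of all 10382 genes. DESeq2 called 0 of 69, against 3.01% of all genes. From 14 to 21 d in 10_11 79 were called higher, against 9.48% of all genes. At 14 d 43 were called lower in 10_11 than in Karl, against 2.02% of all genes. The score used each of these changes, and the calls are given beside their background as a description only. With all 18 libraries, 1 of the 100 was called at 14 d between the lines, and the calls over all genes fell from 311 to 5.

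Leaving out 1 library moved these counts, and the calls over all genes moved the same way in some cases and the other way in others. Without 10_11 21 d A or C, the late rises called in 10_11 went up from 79 to 91 and 88. The calls over all genes then fell from 1809 to 1730 and 1458. Without Karl 14 d B, the early rises called in Karl went up from 79 to 83, and the calls over all genes fell from 1108 to 1005. Without Karl 7 d replicate 1, the early rises called in Karl were 39 of the 100, and the calls over all genes in either direction fell from 1108 to 559. The late rises called in 10_11 were 26 without 10_11 14 d A and 39 without 10_11 14 d B, and the calls over all genes fell from 1809 to 475 and 751. Without 10_11 21 d B they were 54, with 1542 calls over all genes. The genes called at 14 d between the lines were 2 without 10_11 14 d A, 3 without 10_11 14 d B, 9 without Karl 14 d A and 15 without Karl 14 d C, with 48, 62, 98 and 114 calls over all genes. They were 72 without 10_11 21 d B, with 582 over all genes.

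The difference between the lines in the change from 14 to 21 d was called in 4 of the 100 genes, all with the greater rise in 10_11, against 0.0674% of all genes tested in that direction. They were HORVU7Hr1G035010, HORVU1Hr1G043920, HORVU3Hr1G088270 and HORVU6Hr1G084070, with fitted log2 differences of 3.89, 3.01, 4.55 and 5.48. The first of them was singled out after its values were seen. It had 15.3, 8.29 and 5.57 normalized counts in Karl at 14 d and 14.1, 18.2 and 13.1 at 21 d, against 1.46 and 1.32 and then 25.5, 45.4 and 34.6 in 10_11. The difference between the lines in the change from 7 to 14 d was called in 0 of the 100, against 0.00963% of all genes. At an unadjusted p under 0.05 there were 48 by edgeR, against 746 of all 10382 genes. DESeq2 called 2 of 48, against 0.255% of all genes. The score asked for both differences. The count of 4 was 0 with all 18 libraries, where 0 of all genes were called. With the replicate numbers fitted as a block it was also 0, with 4 calls over all genes. DESeq2 called 28 of the 65 to which it gave an adjusted p, and 170 of 4942 genes in all. Leaving out 1 library moved the count from 0 to 18. It was 0 without any 1 of Karl 14 d A, Karl 21 d A, 10_11 7 d replicate 2, 10_11 14 d A and 10_11 14 d B, with 1 to 3 calls over all genes, and 18 without Karl 14 d B, with 38.

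The score does not set the lines against each other at 7 d or 21 d, but it uses the group means of both days, so these comparisons are a description as well. At 7 d, edgeR called 0 of the 100 between the lines, against 0.414% of all genes. At an unadjusted p under 0.05 there were 3, against 471 of all 10382 genes. DESeq2 called 0 of 97, against 0.482% of all genes. The median of 10_11 minus Karl at 7 d was 0.14 on the log2(group mean + 5) scale. The libraries of the lines did not overlap at 7 d in 5 genes that were higher in 10_11, against 4.63% of all genes scored, and in 2 that were higher in Karl, against 4.77%, which are shares near the background or under it. Counts were few at that age. In Karl 10 of the genes had 0 counts in all libraries of 7 d, which allows up to 3 counts in the 2369032 counts of that group, and in 10_11 7 genes did, which allows up to 3 in 1936426. Over the 6 libraries of 7 d together, 31 of the 100 genes had fewer than 10 counts.

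At 21 d, 1 of the 100 genes was called between the lines by edgeR, higher in 10_11, against 0.925% of all genes called higher in 10_11. That is near the share of all genes, so nothing about the set is read from it. The gene called was HORVU1Hr1G043920 on chromosome 1, with 133, 199 and 166 normalized counts in 10_11 and 76.5, 84.0 and 32.5 in Karl at 21 d. All 3 libraries of 10_11 were above all 3 of Karl. Its fitted log2 difference was 1.33. The call held in 7 of 24 alternatives, over which the log2 difference ran from 0.89 to 1.59. The gene was chosen partly for its high level in 10_11 at 21 d, so no p is given for it. At 7 d it had 17.4, 13.9 and 8.41 in 10_11 and 10.1, 15.8 and 13.2 in Karl, and the lines overlapped.

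The median of 10_11 minus Karl at 21 d over the 100 genes was 0.17, and 61 genes were above 0. Without 10_11 21 d B it was −0.64, and 27 genes were above 0. With all libraries, 8 genes had all 10_11 libraries above all Karl libraries at 21 d, against 12.3% of all genes scored, and 1 gene had the reverse, against 7.90%. Whether the lines were level at 21 d therefore depended on 1 library. Without 10_11 21 d B, 13 of the 100 were called lower in 10_11 at 21 d, and 3.59% of all genes were called in either direction. With it, 0 of the 100 were called lower by edgeR, against 0.491% of all genes. In either direction 15 of the 100 had an unadjusted p under 0.05, against 1572 of all 10382 genes, a share near the background. Calls in either direction were then 1.42% of all genes. Without 10_11 21 d B and Karl 21 d C together, a choice made after the data were seen, 34 were called lower, and 6.16% of all genes were called in either direction. The difference between the lines in the change from 7 to 21 d was called in 0 of the 100 genes by edgeR, against 0 of all genes tested. At an unadjusted p under 0.05 there were 0 of the 100, against 776 of all 10382 genes. DESeq2 gave an adjusted p to 37 of the 100 and called 0 of them, and it called 30 of 2529 genes in all. Without those 2 libraries edgeR called 4 of the 100 and 39 of all genes.

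Libraries of 1 group did not share a level in the 100 genes. At 21 d in 10_11, replicate B was the highest library in 91 of the 100 genes, against 45.9% of all genes scored. Its median deviation from the group mean was 1.14 on the log2 scale, and those of replicates A and C were both −0.58. Over all genes scored, the 3 libraries' median deviations were −0.01, 0.07 and −0.04 for A, B and C. In Karl, replicate B was the lowest library at 14 d in 88 genes, against 38.4% of all genes, with a median deviation of −0.68, and replicate C was the lowest at 21 d in 92 genes, against 39.8% of all, with a median of −0.73. At 7 d the median deviations ran from −0.04 to 0.06 in both lines. The score used the means of these groups, and 1 high library can raise a mean. Nothing is therefore read from the gap between the 100 genes and all genes.

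**Figure D3:**
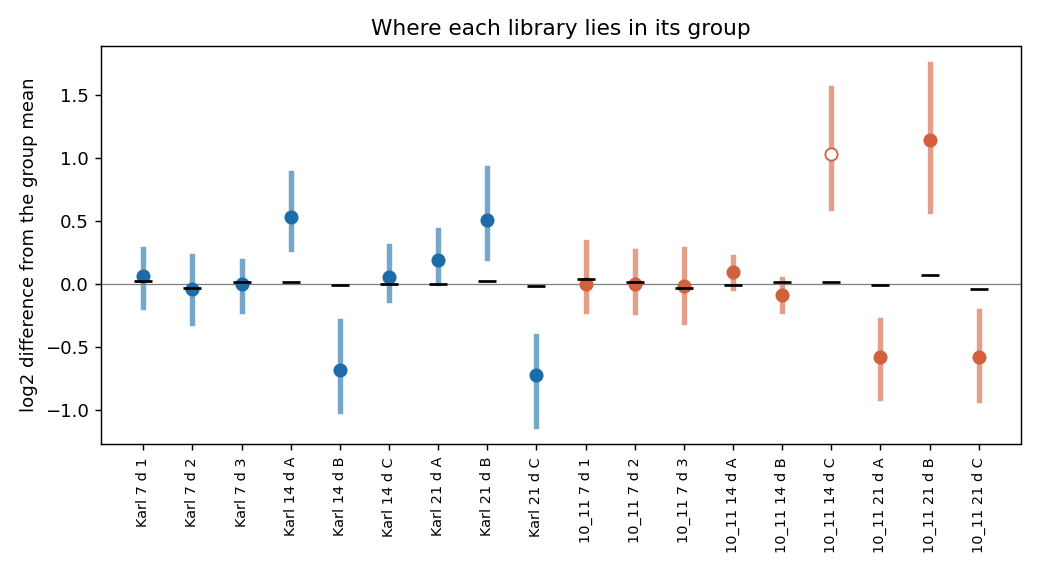
For each library (Karl in blue, 10_11 in orange) the point is the median over the 100 genes of log2(normalized count + 5) minus the mean of the libraries of its group, the bar spans the quartiles, and the short black line is the median over all 7152 genes scored; the open circle is the library labelled 10_11 14 d C, set against the mean of replicates A and B. The median of the 100 genes lay 1.14 above the group mean in 10_11 21 d B and 0.73 below it in Karl 21 d C. In both libraries the median over all genes lay within 0.07 of it.

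The depth and composition of these libraries were as follows. The 10_11 libraries of 21 d held 1058777, 1159950 and 1384895 counts in replicates A, B and C, and the 100 most counted genes took 33.1%, 30.5% and 30.3% of them. Karl 21 d C held 1519100 counts, and Karl 14 d B held 2088696. The share of counts in the 100 genes of the set was 0.842%, 2.399% and 0.960% in 10_11 21 d A, B and C, 1.36%, 1.65% and 0.704% in Karl 21 d, and 1.59%, 0.673% and 1.15% in Karl 14 d. The part of leaf age, of the pooled leaves or of library making in these differences was not tested.

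Genes with a high deviation in 10_11 21 d B tended to have a low one in Karl 21 d C. Over the 100 genes, the deviations of these libraries from their own group means were related with a Pearson r of −0.81 and a rho (Spearman) of −0.77. Over all 7152 genes scored, r was −0.52 and rho −0.35. The deviations in Karl 21 d C and Karl 14 d B were related with r of 0.60 and rho of 0.58 over the 100 genes, and 0.49 and 0.42 over all genes. These are relations across genes, which share their libraries and are not independent replicates, and they are given as a description. The same libraries chose the 100 genes, so nothing is read from the gap to all genes.

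The 100 genes were divided by how far 10_11 21 d B lay above the next library of its group, a division made after the values were seen and described without a test. In 38 genes B was at least 4-fold above the next library, against 1.82% of all genes scored, and in 63 it was at least 2-fold above, against 7.40%. A high B raises the group mean that the score used, so nothing is read from these gaps. In the 38 genes the median late rise in 10_11 was 2.45 with all 3 libraries and 0.67 without B, and 14 of them kept a rise of 1 or more. In the 25 genes from 2-fold to 4-fold, the medians were 2.13 and 1.46, and 18 kept a rise of 1 or more. In the 37 genes under 2-fold, the medians were 2.14 and 1.77, and 36 kept a rise of 1 or more. B itself set these classes, so how much of the rise was left without B follows largely from the division. Karl 21 d C was lower in the same order, with median deviations of −1.28, −0.67 and −0.43 in the 38, the 25 and the 37 genes. In Karl 14 d B they were −0.95, −0.56 and −0.35.

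Without 10_11 21 d B, the median late rise over all 100 genes was 1.41, with a range of −0.81 to 3.62, and 68 genes had a rise of 1 or more while 7 had none. With group medians in place of means it was 1.63. In 9 genes replicates A and C of 10_11 at 21 d were both at or below the higher of the 2 libraries of 14 d. A gene of this kind was HORVU6Hr1G004000, on chromosome 6, with 1.46 and 0 normalized counts in 10_11 at 14 d and 0, 44.4 and 0 at 21 d. HORVU5Hr1G021070, on chromosome 5, had 0.366 and 1.98 at 14 d and 1.11, 65.0 and 2.26 at 21 d, and its rise was 2.17 with B and 0.11 without it. At the other end, HORVU1Hr1G049260 on chromosome 1 had 9.88 and 26.4 at 14 d and 67.7, 80.5 and 57.9 at 21 d, and its rise was 1.67 with B and 1.55 without it.

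**Figure D4:**
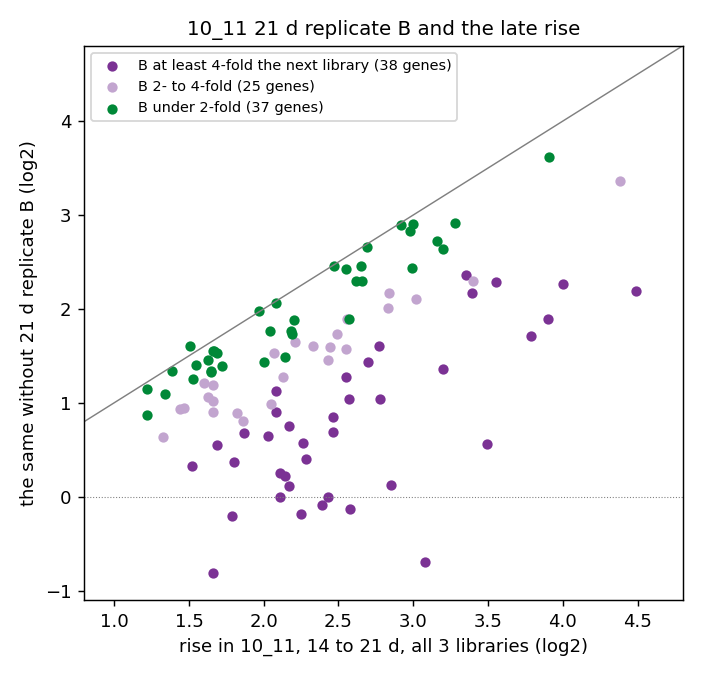
Each point is 1 of the 100 genes, with its rise in 10_11 from 14 to 21 d on the log2(group mean + 5) scale from all 3 libraries of 21 d on the horizontal axis and without replicate B on the vertical axis; the grey diagonal marks equal values, the dotted line marks 0, and colour gives how far B lay above the next library. The 37 genes under 2-fold lie near the diagonal and the 38 at 4-fold or more lie below it, 7 genes in all at or under 0. B itself set the colour classes, so their order follows largely from the division.

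The library labelled 10_11 14 d replicate C did not choose the genes, but the libraries at both ends of the scale used here did. Genes chosen as low at 1 end and high at the other can by that choice alone place a further library between them. For each gene the library labelled C was placed between the mean of 10_11 14 d A and B, at 0, and the mean of Karl at 14 d, at 1. It was nearer to Karl, above 0.5, in 65 of the 100 genes, with a median of 0.57, quartiles of 0.42 and 0.77 and a range of −0.28 to 1.41. The single Karl libraries A, B and C had medians of 1.28, 0.66 and 1.03 on this scale, and 10_11 14 d A and B had 0.05 and −0.05. In 94 of the 100 genes it was above both other 10_11 libraries, and in 34 it was at or above the lowest Karl library. For the 293 scored genes outside the set that were at least 1 log2 unit higher in Karl at 14 d, these shares were 88.4% and 38.9%. Over all 591 scored genes whose lines were at least 1 log2 unit apart at 14 d, 61.8% were above 0.5, with a median of 0.60. Of the 293 genes, 62.8% were above 0.5, with a median of 0.60. The 65 of the 100 genes are near these shares, so the position is not read as a trait of the set. At the 19 genes of the line check, this library sat at 0.026 on a scale where Karl is 0.

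**Figure D5:**
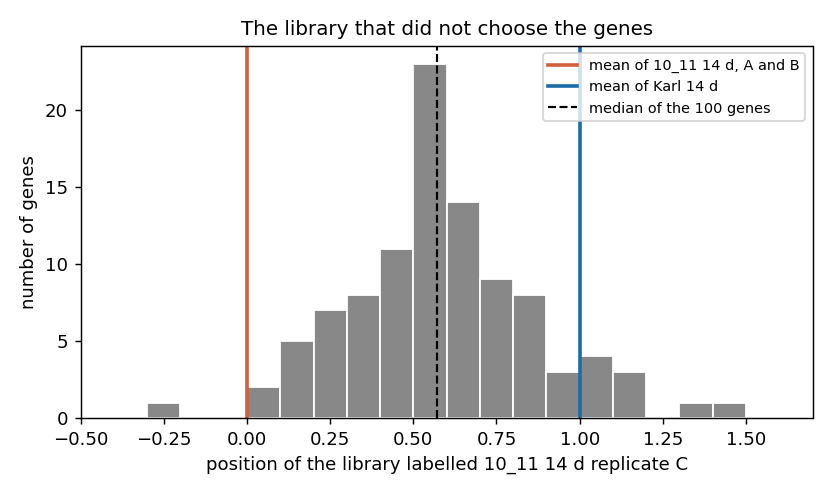
The histogram gives the number of the 100 genes at each position of the library labelled 10_11 14 d replicate C, on a scale where 0 is the mean of the other 10_11 libraries of 14 d (orange line) and 1 the mean of the Karl libraries of 14 d (blue line). The median, drawn as a dashed line, is 0.57.

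The genes at the ends of that scale were HORVU1Hr1G018370 and HORVU5Hr1G021070, at −0.28 and 0.07, and HORVU4Hr1G003400 and HORVU5Hr1G112930, at 1.31 and 1.41. HORVU1Hr1G018370 had 39.1, 13.3 and 41.4 normalized counts in Karl at 14 d and 12.4, 18.5 and, in the library labelled C, 12.6 in 10_11. HORVU4Hr1G003400 had 15.9, 9.39 and 15.1 in Karl and 5.49, 5.94 and 16.4 in 10_11, with C above all Karl libraries. HORVU5Hr1G112930 had 176, 18.2 and 108 in Karl and 16.8, 1.32 and 164 in 10_11. Its Karl libraries spread more widely than those of HORVU1Hr1G018370 and HORVU4Hr1G003400.

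By identifier, the genes lay on all 7 chromosomes. Chromosome 1 held 22 of them, 2.29% of its 959 scored genes, and chromosome 3 held 21, 2.00% of 1049, while 1.40% of all scored genes belonged to the set. Chromosome 2 held 6, 0.568% of 1056. Chromosomes 4, 5, 6 and 7 held 14, 11, 12 and 13, which are 1.51%, 0.958%, 1.46% and 1.28% of their scored genes, and 1 gene was unplaced. Chromosome 6, which carries the grain protein locus by which the lines are known to differ, was as a whole near the share of all genes. Along it, stretches of 10000 units of the identifiers' running number ranged from 0% to 3.12% (3 of 96 genes). The share of the whole chromosome therefore does not describe the locus itself. No test was made of these shares, since neighbouring genes are not independent.

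There were 5 pairs of genes of the set within 200 units of the identifiers' running number. HORVU6Hr1G004000 and HORVU6Hr1G004010 had no other gene of the table between them, and neither did HORVU7Hr1G113290 and HORVU7Hr1G113300. HORVU6Hr1G004010 had 422, 97.3 and 378 normalized counts in Karl at 14 d and 16.8 and 1.98 in 10_11, and 5.55, 275 and 15.8 in 10_11 at 21 d. HORVU6Hr1G004000 had 94.6, 20.4 and 55.7 in Karl and 1.46 and 0 in 10_11 at 14 d. Both of this pair were high at 21 d in replicate B of 10_11 and near their 14 d levels in A and C. HORVU7Hr1G113300 had 38.8, 161 and 34.6 in 10_11 at 21 d after 3.66 and 2.64 at 14 d, and HORVU7Hr1G113290 had 24.4, 153 and 26.3 after 1.10 and 1.32, so that all libraries of 21 d were above those of 14 d in this pair. Adjacent genes can overlap or be near-identical copies, and reads of such copies may have been split between them or lost in counting, which leaves each gene of these pairs uncertain.

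The other pairs were HORVU1Hr1G049100 with HORVU1Hr1G049260, HORVU1Hr1G072190 with HORVU1Hr1G072220, and HORVU3Hr1G053060 with HORVU3Hr1G053210. Members of a pair did not always move alike. Without 10_11 21 d B, the late rise was 1.77 in HORVU1Hr1G072190 and 0.65 in HORVU1Hr1G072220, and it was 1.77 in HORVU3Hr1G053060 and 1.04 in HORVU3Hr1G053210. In HORVU1Hr1G049100 and HORVU1Hr1G049260 it was 1.53 and 1.55.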

How the data were processed

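The authors deposited 1 table of raw counts per gene and library, and normalized counts, a signal scaled by 1 size factor per library, per the file headers. STAR 2.4.2a, cutadapt, bcl2fastq, HTSeq and DESeq2 are named in the submitters' processing notes. Not given in the sources used here are the build, annotation, strand setting and whether molecular identifiers were used to remove copies. Counts may therefore hold amplification copies, and limits from 0 counts cover counting error only. Without a stated strand setting, overlapping and antisense genes cannot be told apart. The tissue was not checked by markers, since identifiers are not paired with names.

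The 100 genes, the rule that chose them, the lists and the genes named were chosen with earlier results of these data known. Scores used the deposited normalized counts. Tests used the deposited counts in edgeR 4.0.16 (R 4.3.3), with filterByExpr by group, TMM, and the quasi-likelihood test (two-sided) on 17 libraries with 1 mean per line and day, which left 11 residual degrees of freedom. Libraries held 353982 to 3231258 counts. The scripts were tested on simulated data. The genes named were the 12 highest scores, ranks 98 to 100 and the next 3, the genes called between the lines at 7 or 21 d, the 3 highest in Karl at 14 d, the 3 with the largest smaller rise, those within 200 serial units of another, and the 2 at each end in the library labelled 10_11 14 d C. Alternatives were all 18 libraries, each library left out in turn, DESeq2 1.42.0, size factors in place of TMM, no filter, thinned counts, a minimum fold of 2, a replicate block, and other pseudocounts and minima.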

Additional observations from a re-analysis of the deposited data

Results flagged for a closer look

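The change from 14 to 21 d differed between the lines by edgeR in 4 of the 100 genes, HORVU7Hr1G035010, HORVU1Hr1G043920, HORVU3Hr1G088270 and HORVU6Hr1G084070, which marked them for a closer look. The fitted log2 differences were 3.89, 3.01, 4.55 and 5.48, and in each all 3 libraries of 10_11 at 21 d were above both of 14 d. The score asked for both changes, so these are descriptions and no p is given. Groups had 2 or 3 libraries, and Dixon's criterion for an outlying sample was not applied to groups of that size.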

How the results depend on the processing

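Of the 100 genes, 59 were also chosen by group medians, 69 with all 18 libraries, 73 and 85 with pseudocounts of 20 and 1, 72 with a minimum mean of 50, 94 with none and 92 on TMM-scaled counts. Without 1 library at a time, 57 (without 10_11 21 d B) to 94 were kept. The median rise in Karl was 2.80 and 1.48, with pseudocounts of 1 and 20, and the median late rise in 10_11 was 1.50 with 20. The exchanged pattern had 2 genes with all 18 libraries and 2 by group medians.

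The counts of the 100 genes called moved as follows, with the calls over all genes beside them. By DESeq2 they were 2 of 91 tested for Karl 14 to 21 d (263 of 7958 genes), 2 of 97 for the lines at 21 d (325 of 10373), 2 of 48 for the difference of the lines from 7 to 14 d (9 of 3535) and 28 of 65 for that from 14 to 21 d (170 of 4942). With all 18 libraries (9973 genes) they were 1 for 10_11 from 7 to 14 d (242), 1 for the lines at 14 d (5), 0 for the lines at 21 d (1.01% of genes) and 0 for the difference from 14 to 21 d (0), with 52 genes separated in 10_11 and 48 in both lines. With thinned counts, of 95 tested (5995 genes), they were 1 for Karl 14 to 21 d (38), 45 for 10_11 from 14 to 21 d (885), 6 for the lines at 14 d (55), 0 for the lines at 21 d (39) and 0 for the difference from 14 to 21 d (2), and with no filter 0 for the lines at 21 d (143 of 13626). Without Karl 21 d C and 10_11 21 d B (10234 genes) they were 3 for Karl 14 to 21 d (148), 1 for 10_11 from 7 to 14 d (137), 81 for the lines at 14 d (706), 34 for the lines at 21 d (630), and 5 and 4 for the differences from 7 to 14 d (8) and from 7 to 21 d (39). The cause was not tested. HORVU6Hr1G084070 turned to −0.54 in 10_11 from 14 to 21 d with all 18 libraries.

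Same-numbered samples of the groups did not deviate together throughout. Between the lines at 21 d, the correlation over genes of their deviations was −0.149 for A, 0.301 for B and 0.324 for C. At 14 d it was 0.225 for A and 0.23 for B. Between 14 and 21 d in Karl it was 0.153, −0.307 and −0.055 for A, B and C. Deviations within so small a group are bound to each other, so these values cannot settle whether the numbers pair the samples. With a replicate block the count was 74 for Karl from 7 to 14 d (886 of 10382 genes), 70 for 10_11 from 14 to 21 d (1328), 31 for the lines at 14 d (203), and 0 for the lines at 21 d (106) and for the difference from 14 to 21 d (4).

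Without 1 library at a time the calls ranged from 39 (without Karl 7 d replicate 1, 5.39% of all genes) to 91 (without 10_11 21 d B, 13.7%) for Karl from 7 to 14 d, and from 26 (without 10_11 14 d A, 4.37%) to 91 (without 10_11 21 d A, 16.8%) for 10_11 from 14 to 21 d. For the lines at 14 d they ranged from 2 (without 10_11 14 d A, 0.442%) to 72 (without 10_11 21 d B, 5.64%). The highest counts without 10_11 21 d B were 3 for Karl from 14 to 21 d (2.62%), 1 for 10_11 from 7 to 14 d (1.17%) and 13 for the lines at 21 d (3.59%), and the lowest were 0. They ranged from 0 to 18 (without Karl 14 d B, 0.377%) for the difference of the lines from 14 to 21 d, and were 0 for the lines at 7 d and for the other differences. A group left with 1 library was assumed to vary like the others. The exchanged pattern had 0 to 2 genes, the median rises ranged from 1.90 to 2.50 in Karl and from 1.41 to 2.62 in 10_11, and 50 to 73 genes of the library labelled 10_11 14 d C were nearer to Karl. Separated genes ranged from 95 to 99 in Karl, 85 to 93 in 10_11 and 80 to 88 in both. With the 17 libraries, 18.3%, 27.3% and 9.28% of all genes scored were so separated. Fewer libraries make separation easier for every gene, and the shares of all genes without 1 library are not given here, so nothing is read from these ranges. Of the values of changes called in single named genes, 1124 kept the call, 145 lost it and 1 turned.

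Depth limits the 7 d values most: 31 of the 100 genes had fewer than 10 counts over the 6 libraries of that day.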
